A study of Mus musculus with 18 samples.

Results

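Intratumoral injection of the free STING agonist CDN2 at 20 µg, given in 2 doses, was compared with 2 doses of PBS across all expressed genes. The comparison holds 4 of the series' 18 tumors, which were chosen by their sample labels and not by any measured value: 2 tumors given free CDN2 (called CDN2 tumors 1 and 2 here, after their replicate numbers) and 2 tumors given PBS. The tumors were grown from B16F10 cells, a mouse melanoma line, under the skin of C57BL/6 mice. CDN2 is cAIM(PS)2 Difluor, a synthetic 3′-3′ cyclic dinucleotide. Both doses were given 3 days apart, and RNA of the whole tumor was sequenced 24 h after the last dose. The other groups used below are PBS and free CDN2 (20 µg) after 1 dose, and exoCDN2 after 2 doses, in which CDN2 (0.1 µg) was loaded into extracellular vesicles (EVs). Each of these groups also has 2 tumors, all B16F10 tumors injected in the same way. Further groups entered the statistical fit only for its pooled spread. They were given 1 dose of free CDN2 (100 µg), of unloaded EVs or of exoCDN2 (0.1 µg), with 2 tumors each.

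Cyclic dinucleotides bind STING, an adaptor protein of the endoplasmic reticulum that then recruits the kinase TBK1, and TBK1 activates the transcription factor IRF3 and, together with NF-κB, the gene of interferon beta. Secreted type I interferon signals through a transcription factor complex that holds IRF9, which binds interferon-stimulated response elements and switches on the interferon-stimulated genes. B16F10 tumors are known to hold few T cells, and agonists of STING are injected into such tumors to raise interferon, chemokines and the traffic of leukocytes. Since the RNA came from the whole tumor, a lower value can mean fewer cells of a type or less RNA per cell, and these cannot be told apart.

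Values are CPM, the expected counts scaled by TMM to a library of 1000000, and a pair of values is given in the order of tumors 1 and 2. A gene was called higher or lower, and is said here to have risen or fallen, when edgeR's quasi-likelihood test gave a Benjamini-Hochberg adjusted p under 0.05 and the fitted ratio was over 2. The totals of expected counts were 21608895 in CDN2 tumor 1 and 39144700 in CDN2 tumor 2, against 45635359 and 45497629 in the PBS tumors, so low values are least precise in CDN2 tumor 1. Melanocyte markers were high in all 4 tumors, as the label of a melanoma requires. Their summed level was 10621 and 19441 CPM in the CDN2 tumors and 32137 and 34492 CPM in the PBS tumors.

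After 2 doses of CDN2, 3391 of 16927 genes were called higher (20.0% of the genes tested) and 1786 were called lower (10.6%). The counts of list members against PBS below are to be read beside these shares. The rises were the larger changes. Their median was 2.63 on the log2 scale, and 1383 genes rose more than 8-fold and 446 more than 32-fold, whereas the median of the genes called lower was a fall of 1.37 on the log2 scale and 95 of them fell more than 8-fold. The 10 named rises with the smallest p-values are all genes known to be induced by interferon, and the corresponding falls included Tfrc, the transferrin receptor, and the mitosis genes Incenp and Wdr62. The smallest two-sided p of an exact permutation test is 0.333 at 2 tumors against 2, so every call rests on the spread pooled over the 16 tumors of the 8 groups in the fit. Fitted on the 4 tumors alone, 2321 genes were called higher and 739 lower. Where a list is said below to have 0 members in a direction against PBS, DESeq2 also called 0, and 0 to 3 of its members had an unadjusted p under 0.05 in that direction.

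The 2 CDN2 tumors disagreed with each other more than the pair of any other group in the fit. Between them 4595 genes (27.1%) differed more than 2-fold, against 1800 (10.6%) between the PBS tumors, and each tumor was therefore also set against PBS alone. A single tumor has no spread of its own, so these calls assume that it varies like the tumors of the other groups. They describe that tumor only. The joint fit also gives all groups the same spread for a gene, so its p-values can be too small where the CDN2 tumors disagree. With CDN2 tumor 1 alone, 3663 genes (21.6%) were called higher and 3330 (19.7%) lower. With CDN2 tumor 2 alone, 2576 (15.2%) were called higher and 1140 (6.73%) lower. Of the 3391 rises, 2210 (65.2%) were also called with each tumor alone, 893 with tumor 1 only, 224 with tumor 2 only and 64 with neither. Of the 1786 falls, 831 (46.5%) were called with each tumor alone, 785 with tumor 1 only and 112 with tumor 2 only. Where the tumors differed more than 2-fold, CDN2 tumor 1 lay further from PBS in 1360 of 1503 rises and in 628 of 662 falls.

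**Figure D1:**
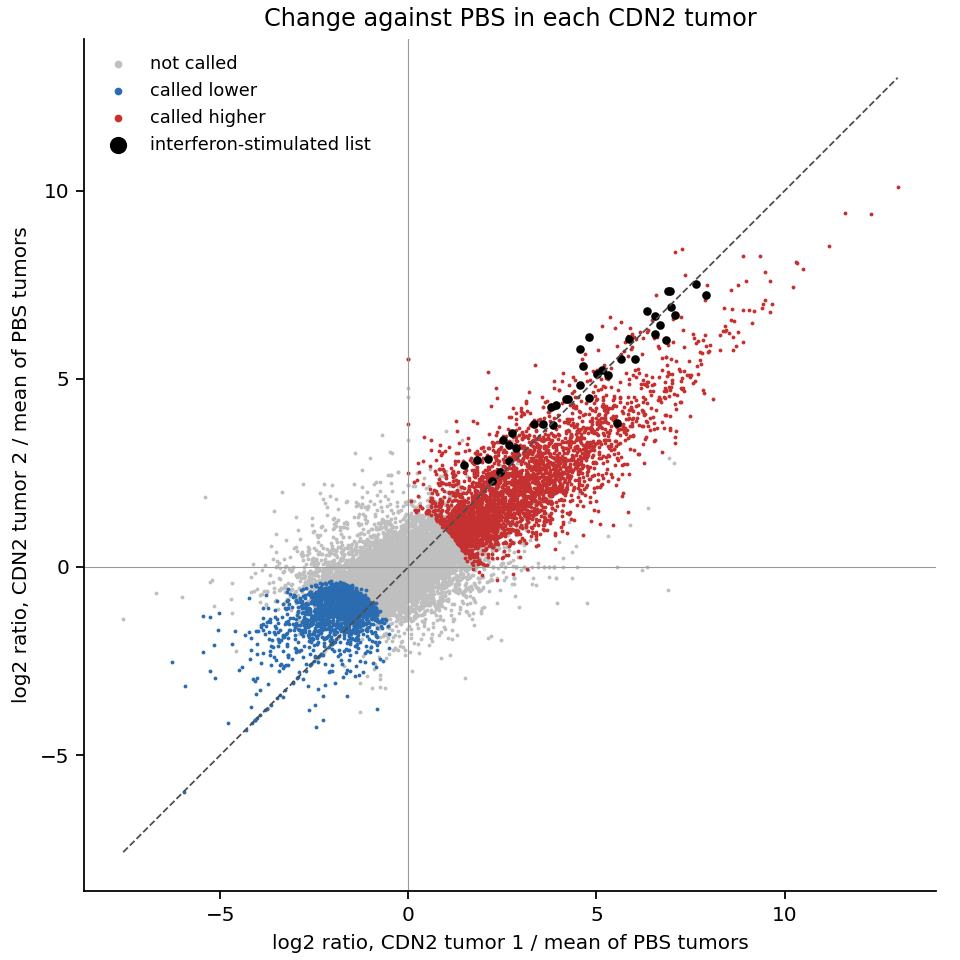
Each point is 1 of the 16927 genes tested, with the log2 ratio of CDN2 tumor 1 to the mean of the PBS tumors on the x axis and that of CDN2 tumor 2 on the y axis (log2 CPM with a prior count of 2). Genes called higher are red, genes called lower are blue and genes not called are grey, and the diagonal marks equal ratios. Most strongly raised genes lie below the diagonal, that is, further from PBS in CDN2 tumor 1, and the black points of the interferon-stimulated list lie along it.

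Interferon-stimulated genes (ISGs) rose alike in both CDN2 tumors. All 40 genes of the ISG list rose, in the joint fit and with each CDN2 tumor alone, against 20.0% of all genes tested, with a median log2 fold change of 4.97 and values from 2.00 to 7.62. Summed over the list, the level was 14411 and 15043 CPM in the CDN2 tumors and 768 and 652 CPM in the PBS tumors. Only 5 of the 40 members differed more than 2-fold between the CDN2 tumors, 1 further up in tumor 1 and 4 in tumor 2. The largest rise of the list was in Isg15, a ubiquitin-like protein that is attached to other proteins. Isg15 measured 1072 and 671 CPM in the CDN2 tumors and 4.35 and 4.51 CPM in the PBS tumors, a log2 fold change of 7.62 ± 0.31 (SE, adjusted p = 7.97e-08). Usp18, the protease that removes ISG15 from proteins and dampens interferon signaling, measured 391 and 326 CPM in the CDN2 tumors and 3.88 and 3.65 CPM in the PBS tumors, a log2 fold change of 6.57 ± 0.26 (SE, adjusted p = 7.97e-08). In both genes the CDN2 tumors lay far above the PBS tumors and close to each other.

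Oasl2, Oas3 and Isg20 were also among the 10 rises with the smallest p-values. Oasl2, a protein related to 2′-5′-oligoadenylate synthetases, measured 287 and 329 CPM in the CDN2 tumors and 5.07 and 4.62 CPM in the PBS tumors, with a log2 fold change of 5.99 ± 0.22 (SE, adjusted p = 7.97e-08). Oas3, a synthetase of the same family whose product activates RNase L, measured 181 and 246 CPM in the CDN2 tumors and 1.30 and 1.68 CPM in the PBS tumors, with a log2 fold change of 7.16 ± 0.37 (SE, adjusted p = 4.89e-07). Isg20, an exonuclease, measured 222 and 174 CPM in the CDN2 tumors and 2.56 and 2.12 CPM in the PBS tumors, with a log2 fold change of 6.40 ± 0.34 (SE, adjusted p = 4.89e-07). Oas genes lie in a cluster of near-identical copies, as do Ifit3 and Ifit3b, so the split of reads among their members is uncertain. Of the transcription factors of the pathway, Irf7, which amplifies the interferon response, rose to 801 and 452 CPM against 6.89 and 6.85 CPM (a log2 fold change of 6.51 ± 0.32 (SE, adjusted p = 4.09e-07)). Irf9, the DNA-binding subunit of the complex that type I interferon activates, stood at 94.1 and 100.0 CPM against 17.9 and 16.6 CPM (a log2 fold change of 2.49 ± 0.12 (SE, adjusted p = 2.66e-07)). Irf9, which was already expressed in the PBS tumors, had the smaller fold change of the pair. Rtp4, a chaperone of receptors that is induced by interferon, Xaf1, a binder of the apoptosis inhibitor XIAP, and Phf11d were the other genes among the 10 rises with the smallest p-values, at log2 fold changes of 5.79, 5.18 and 6.16.

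The start regions of these genes were searched for the core letters of the interferon-stimulated response element, GAAANNGAAA, on both strands, from 250 bases before to 50 bases after each RefSeq transcription start (GRCm38.p6). The letters were present in 15 of the 29 ISGs that the RefSeq table covers (51.7%), in 196 of 2216 genes called higher (8.84%), in 33 of 1272 called lower (2.59%) and in 3.99% of all 27025 genes with a start region. Overlapping matches were counted separately. The NF-κB letters GGGANTTTCC, searched in the same way, were present in 24 genes called higher (1.08%), in 5 called lower (0.393%) and in 0.466% of all genes, and in 0 of the 29 ISGs. A match is a description of the sequence and not a site shown to be bound. The start regions of 4 of the 15 ISGs that hold the element are printed as examples, with the element in capitals. These genes rose in each CDN2 tumor alone, as every gene of the ISG list did. Isg15 lies on the minus strand and its region is chr4:156200769-156201068, with 3 overlapping matches. Oas3 is on the minus strand with its region at chr5:120777610-120777909. Ifit1, an RNA-binding inhibitor of translation, is on the plus strand with its region at chr19:34640639-34640938. Rsad2, the antiviral enzyme viperin, is on the minus strand with its region at chr12:26456403-26456702. All 4 are written in the direction of transcription.
Isg15: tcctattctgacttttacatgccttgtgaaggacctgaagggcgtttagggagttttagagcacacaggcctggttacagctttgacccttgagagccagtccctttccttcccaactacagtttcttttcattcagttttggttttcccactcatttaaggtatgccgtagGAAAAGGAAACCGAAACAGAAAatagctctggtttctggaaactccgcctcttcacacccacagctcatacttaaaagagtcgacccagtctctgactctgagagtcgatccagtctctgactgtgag
Oas3: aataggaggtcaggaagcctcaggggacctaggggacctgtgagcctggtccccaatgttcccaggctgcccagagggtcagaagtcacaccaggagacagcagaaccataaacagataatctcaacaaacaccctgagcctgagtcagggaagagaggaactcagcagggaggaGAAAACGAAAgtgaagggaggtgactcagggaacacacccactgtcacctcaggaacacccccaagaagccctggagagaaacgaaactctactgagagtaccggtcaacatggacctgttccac
Ifit1: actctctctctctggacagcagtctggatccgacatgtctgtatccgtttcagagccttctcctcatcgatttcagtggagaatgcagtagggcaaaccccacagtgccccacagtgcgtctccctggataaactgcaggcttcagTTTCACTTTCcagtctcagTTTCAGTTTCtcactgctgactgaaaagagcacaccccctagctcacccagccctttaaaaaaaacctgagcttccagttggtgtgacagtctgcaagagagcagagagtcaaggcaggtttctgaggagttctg
Rsad2: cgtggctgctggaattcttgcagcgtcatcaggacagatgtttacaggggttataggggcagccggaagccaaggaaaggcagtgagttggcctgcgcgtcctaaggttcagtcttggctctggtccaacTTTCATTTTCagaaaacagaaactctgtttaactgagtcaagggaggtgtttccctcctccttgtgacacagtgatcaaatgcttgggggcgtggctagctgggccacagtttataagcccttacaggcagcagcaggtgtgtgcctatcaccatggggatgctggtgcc

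The 4 genes rose together. Ifit1 measured 147 and 241 CPM in the CDN2 tumors and 7.24 and 4.80 CPM in the PBS tumors, and Rsad2 measured 1707 and 1848 CPM in the CDN2 tumors and 21.6 and 15.4 CPM in the PBS tumors, with log2 fold changes of 5.01 and 6.59. The start regions of Oasl2, Irf7, Irf9, Xaf1, Phf11d and Isg20 do not hold these letters in the window searched, and those genes rose as well.

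Of 19 interferon genes and genes of the STING pathway itself, 5 rose and 0 fell, a share near the 20.0% of all genes called higher, with a fitted median log2 fold change of 0.61, or 0.03 with the genes at the floor in both PBS tumors set to their bounds. Ifnb1, which encodes interferon beta, had 185 and 40 counts in CDN2 tumors 1 and 2, or 10.5 and 1.07 CPM, and 0 counts in both PBS tumors. Against a floor of 3 counts in each PBS tumor, the mean of the CDN2 tumors was at least 90.5-fold higher for Ifnb1, a bound set mostly by CDN2 tumor 1. Ifng, the interferon of T cells and natural killer (NK) cells, measured 1.02 and 1.88 CPM against 0.0412 and 0 CPM, a pooled count ratio of 75.2 with a 95% counting interval of 20.2 to 631. The order of the tumors was opposite in the 2 genes, with interferon beta higher in CDN2 tumor 1 and interferon gamma higher in CDN2 tumor 2. Ifng was not called with the PBS tumors of 1 and 2 doses pooled (log2 fold change 1.21, adjusted p = 0.392). Trex1, the DNA exonuclease that removes the ligand of the DNA sensor cGAS, rose (158 and 54.5 CPM against 3.03 and 3.89 CPM, a log2 fold change of 4.94 ± 0.47 (SE, adjusted p = 2.64e-05)), as did Samhd1 and the receptor chain Ifnar2. Sting itself, listed as Tmem173, measured 73.1 and 89.7 CPM in the CDN2 tumors and 49.9 and 56.7 CPM in the PBS tumors and was not called (log2 fold change 0.61, adjusted p = 0.00699). Tbk1 and Irf3 were not called either, at log2 fold changes of 0.37 and -0.08. Intervals for ratios of counts cover counting error only.

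Genes induced by interferon gamma rose in 25 of 26 cases, with a median log2 fold change of 5.66. With the PBS tumors of 1 and 2 doses pooled as controls, 17 of the 26 were called higher and the median was 2.42. The list summed to 188 and 107 CPM after 2 doses of PBS and to 2300.2 and 2691 CPM after 1 dose. Gbp3, a guanylate-binding GTPase that acts on vacuoles of pathogens, measured 245 and 289.8 CPM in the CDN2 tumors and 5.88 and 2.65 CPM in the PBS tumors, and Irgm2, an immunity-related GTPase, measured 264 and 304 CPM in the CDN2 tumors and 11.1 and 8.60 CPM in the PBS tumors. Both stood at similar levels in the 2 CDN2 tumors. Cd274, which encodes the checkpoint ligand PD-L1, measured 392 and 135 CPM in the CDN2 tumors and 7.49 and 5.50 CPM in the PBS tumors (a log2 fold change of 5.34 ± 0.52 (SE, adjusted p = 3.02e-05)), with the higher value in CDN2 tumor 1. Nos2, the inducible nitric oxide synthase, measured 548 and 95.9 CPM in the CDN2 tumors and 1.28 and 1.41 CPM in the PBS tumors (a log2 fold change of 7.90 ± 1.01 (SE, adjusted p = 0.000131)). The 1 member not called was Ciita, the master regulator of MHC class II genes, at 0.739 and 1.77 CPM in the CDN2 tumors and 0.804 and 0.707 CPM in the PBS tumors (log2 fold change 0.80, adjusted p = 0.473).

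Antigen presentation by MHC class I rose in 18 of 20 genes, with a median of 3.65 on the log2 scale. H2-K1, a heavy chain, measured 3341 and 2639.8 CPM in the CDN2 tumors and 101 and 102 CPM in the PBS tumors (a log2 fold change of 4.88 ± 0.43 (SE, adjusted p = 1.64e-05)). Tap1, a subunit of the peptide transporter, measured 266 and 332 CPM in the CDN2 tumors and 14.3 and 14.6 CPM in the PBS tumors (a log2 fold change of 4.37 ± 0.38 (SE, adjusted p = 1.61e-05)), and Tapbp, the tapasin that loads peptide, measured 272 and 455 CPM in the CDN2 tumors and 33.9 and 36.4 CPM in the PBS tumors (a log2 fold change of 3.37 ± 0.26 (SE, adjusted p = 6.62e-06)). The CDN2 tumors differed less than 2-fold in each of H2-K1, Tap1 and Tapbp, and over 2-fold in 2 of the 20, H2-Q7 and Erap1. With all 4 PBS tumors pooled, 12 of 20 class I genes were called higher, with a median of 1.80, and Tap1 was not (log2 fold change 1.63, adjusted p = 0.106). H2 genes are near-identical copies in places, and H2-Q6 and H2-Q7 in particular may exchange reads. For MHC class II, 3 of 12 genes rose and 0 fell, a share of rises near the 20.0% of all genes called higher. They were Ctss and Lgmn, lysosomal proteases that process antigen and are not limited to class II, and H2-DMb1, a chain of the peptide-exchange factor. H2-DMb1 was not called without CDN2 tumor 1 (log2 fold change 1.59, adjusted p = 0.0579), without PBS tumor 1 (log2 fold change 1.47, adjusted p = 0.115) or without PBS tumor 2 (log2 fold change 1.75, adjusted p = 0.0671), and with the PBS tumors pooled its sign turned (log2 fold change -0.63, adjusted p = 0.541), as did that of the class II median, from 0.77 to -0.70. H2-Aa, the alpha chain of I-A, measured 44.2 and 20.8 CPM in the CDN2 tumors and 36.5 and 28.1 CPM in the PBS tumors and was not called (adjusted p = 1.00).

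**Figure D2:**
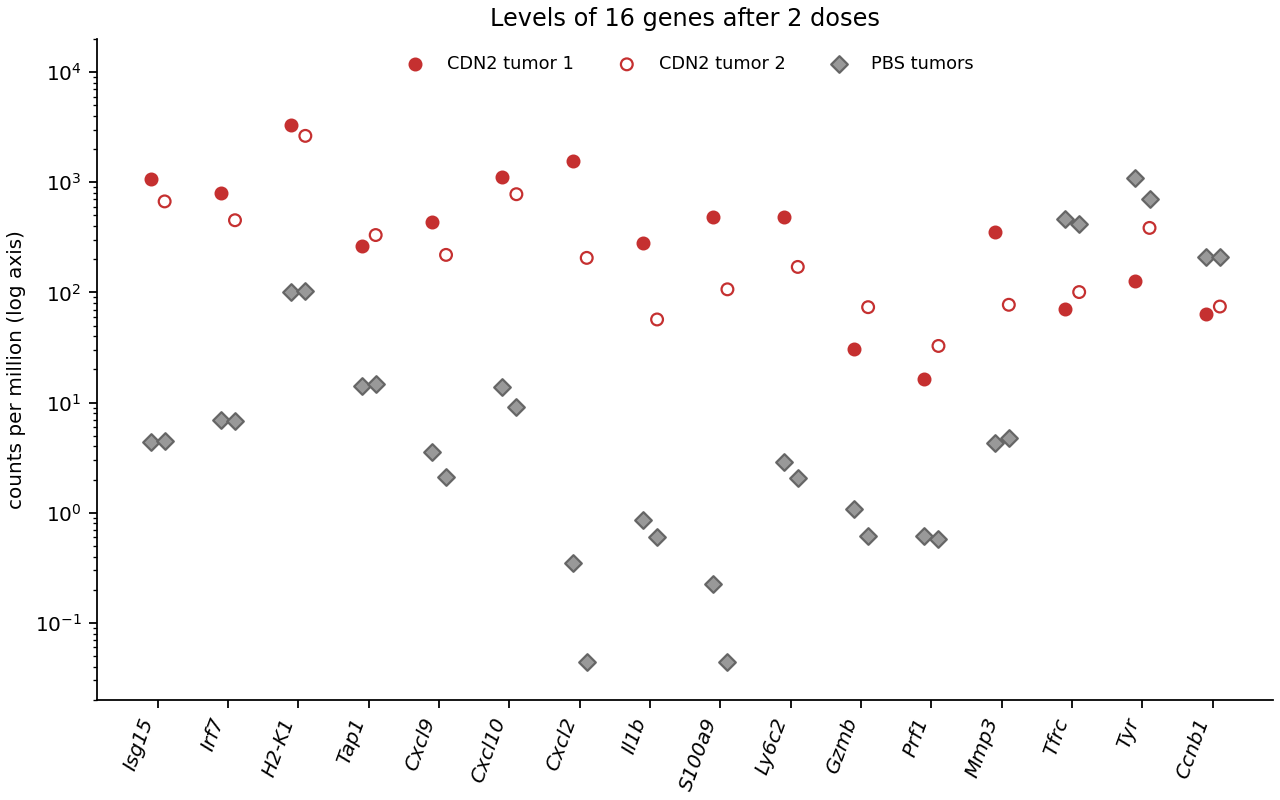
CPM (log axis) of 16 genes in the 4 tumors, with CDN2 tumor 1 as filled circles, CDN2 tumor 2 as open circles and the PBS tumors as grey diamonds. Isg15, Irf7, H2-K1 and Tap1 have both CDN2 tumors close together and above PBS, Cxcl2, Il1b and S100a9 have CDN2 tumor 1 above CDN2 tumor 2, Gzmb and Prf1 have CDN2 tumor 2 above CDN2 tumor 1, and Tfrc, Tyr and Ccnb1 have both CDN2 tumors below PBS.

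Chemokines rose in 22 of 29 genes, with a median of 3.66 on the log2 scale, and 17 of the 29 were more than 2-fold higher in CDN2 tumor 1 than in CDN2 tumor 2. The ligands of CXCR3, which draw effector T cells and NK cells, rose in both tumors. Cxcl9 measured 439 and 219 CPM in the CDN2 tumors and 3.53 and 2.12 CPM in the PBS tumors (a log2 fold change of 6.86 ± 0.48 (SE, adjusted p = 2.86e-06)), and Cxcl10 measured 1111 and 779.6 CPM in the CDN2 tumors and 13.8 and 9.17 CPM in the PBS tumors (a log2 fold change of 6.36 ± 0.46 (SE, adjusted p = 4.28e-06)). Ccl5, a chemokine that draws T cells and monocytes, measured 752 and 309.5 CPM in the CDN2 tumors and 1.94 and 1.44 CPM in the PBS tumors (a log2 fold change of 8.29 ± 0.46 (SE, adjusted p = 6.06e-07)). CDN2 tumor 1 was the higher in all 3 of these genes. Cxcl2 and Cxcl3, ligands of CXCR2 that draw neutrophils, rose too. Cxcl2 measured 1553 and 206 CPM in the CDN2 tumors and 0.351 and 0.0442 CPM in the PBS tumors (a log2 fold change of 12.07 ± 1.39 (SE, adjusted p = 7.69e-05)), and Cxcl3 measured 535 and 72.0 CPM against 0.124 and 0.0221 CPM (a log2 fold change of 11.94 ± 1.35 (SE, adjusted p = 7.03e-05)). Both genes were under 1 CPM in the PBS tumors and were far higher in CDN2 tumor 1 than in CDN2 tumor 2. The difference between tumors was 2.91 on the log2 scale for Cxcl2 and 2.89 for Cxcl3.

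Inflammatory cytokines rose in 16 of 19 genes, with a median of 4.42, and 17 of the 19 were more than 2-fold higher in CDN2 tumor 1. Il1b, interleukin 1 beta, measured 283 and 56.8 CPM in the CDN2 tumors and 0.866 and 0.597 CPM in the PBS tumors (a log2 fold change of 7.85 ± 0.94 (SE, adjusted p = 9.35e-05)). Il1rn, the receptor antagonist of interleukin 1, measured 647 and 173 CPM in the CDN2 tumors and 6.56 and 4.95 CPM in the PBS tumors (a log2 fold change of 6.15 ± 0.74 (SE, adjusted p = 9.89e-05)). Il6 measured 38.6 and 5.34 CPM in the CDN2 tumors and 0.227 and 0.199 CPM in the PBS tumors (a log2 fold change of 6.65 ± 1.14 (SE, adjusted p = 0.000706)), and Tnf measured 10.1 and 4.32 CPM in the CDN2 tumors and 0.392 and 0.265 CPM in the PBS tumors (a log2 fold change of 4.42 ± 0.68 (SE, adjusted p = 0.000374)). In all 4 genes both CDN2 tumors were above both PBS tumors, as in 34.4% of all genes tested, and tumor 1 was the higher. Osm, oncostatin M, a cytokine of the same family as Il6, stood at 148 and 25.8 CPM against 0.474 and 0.177 CPM. Il12b, the shared chain of interleukins 12 and 23, was not called at 0.512 and 0.161 CPM against 0.392 and 0.265 CPM, and neither were Tgfb1 and Il23a.

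Markers of neutrophils and monocytes rose with the chemokines. All 14 neutrophil markers rose, with a summed level of 1149.7 and 255 CPM in the CDN2 tumors and 3.09 and 1.92 CPM in the PBS tumors. All 14 were more than 2-fold higher in CDN2 tumor 1 than in CDN2 tumor 2. The fitted median was 8.39 on the log2 scale, and 7.43 with the 6 genes at the floor in both PBS tumors set to their lower bounds. S100a9, a calcium-binding protein of neutrophil granules and cytosol, measured 484 and 107 CPM in the CDN2 tumors and 0.227 and 0.0442 CPM in the PBS tumors (a log2 fold change of 11.03 ± 1.47 (SE, adjusted p = 0.000165)). Ly6g, the antigen by which mouse neutrophils are defined, measured 6.31 and 1.40 CPM against 0.0206 and 0 CPM, a pooled count ratio of 279 with a 95% counting interval of 49.3 to 11073. Stfa2l1, a stefin of neutrophils, had 0 counts in both PBS tumors, and the mean of the CDN2 tumors was at least 289.5-fold higher.

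Of the monocyte markers, 11 of 12 rose and 0 fell, and the summed level was 2345 and 739 CPM against 67.7 and 44.1 CPM. Ly6c2, the antigen of inflammatory monocytes, measured 486 and 170.5 CPM in the CDN2 tumors and 2.91 and 2.08 CPM in the PBS tumors (a log2 fold change of 7.04 ± 0.78 (SE, adjusted p = 6.49e-05)). Plac8, a cysteine-rich protein of myeloid cells, measured 1164 and 285 CPM in the CDN2 tumors and 5.26 and 5.48 CPM in the PBS tumors (a log2 fold change of 7.08 ± 0.74 (SE, adjusted p = 4.58e-05)). Macrophage markers were divided, with 7 of 12 higher and 2 lower, where 20.0% of all genes tested were called higher and 10.6% lower. Fcgr1, the high-affinity receptor for IgG that interferon also induces, rose (179 and 82.4 CPM against 5.38 and 4.07 CPM, a log2 fold change of 4.78 ± 0.44 (SE, adjusted p = 2.01e-05)), and so did Cd68, a lysosomal glycoprotein of phagocytes (157 and 76.8 CPM against 22.9 and 21.9 CPM). With the PBS tumors pooled, 3 of the 12 were called higher and 2 lower, and the median was 0.66 in place of 1.38. Cd163 and Mrc1, scavenger and mannose receptors of resident macrophages, fell. Cd163 measured 0 and 0.376 CPM against 2.54 and 1.55 CPM, and Mrc1 measured 5.80 and 6.85 CPM against 25.8 and 11.3 CPM. Mrc1 was not called without CDN2 tumor 1 (log2 fold change -1.44, adjusted p = 0.0733) or without PBS tumor 1 (log2 fold change -0.83, adjusted p = 0.185). Adgre1, which encodes F4/80, measured 14.1 and 14.9 CPM in the CDN2 tumors and 18.4 and 13.2 CPM in the PBS tumors and was not called (adjusted p = 0.837).

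Of 11 markers of dendritic cells, 1 rose and 2 fell, where 20.0% of all genes tested were called higher and 10.6% lower. The rise was in Ccr7, the homing receptor of migrating dendritic cells and naive T cells, at 3.13 and 1.93 CPM against 1.05 and 0.994 CPM, and it was not called without CDN2 tumor 1 (log2 fold change 0.91, adjusted p = 0.169) or without either PBS tumor. Flt3, the receptor that dendritic cell precursors depend on, fell (0.114 and 0.0537 CPM against 0.722 and 0.552 CPM, a log2 fold change of -3.03 ± 0.85 (SE, adjusted p = 0.0116)), and so did Cd209a, a lectin of monocyte-derived dendritic cells. Flt3 was not called without CDN2 tumor 2 (log2 fold change -2.48, adjusted p = 0.0874), and Cd209a was not called without CDN2 tumor 1 (log2 fold change -2.87, adjusted p = 0.0926) or without PBS tumor 1 (log2 fold change -3.34, adjusted p = 0.0652). These levels lie near the limit of detection. Xcr1 and Clec9a, which define cross-presenting dendritic cells, were not called, at 0.967 and 0.242 CPM against 0.309 and 0.110 CPM for Xcr1 and 0.0569 and 0.0537 CPM against 0.454 and 0.0663 CPM for Clec9a. Of 5 mast cell markers 4 rose, among them Hdc, the histidine decarboxylase that neutrophils also express, at 185 and 42.0 CPM against 0.536 and 0.552 CPM.

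Lymphocyte genes rose at low levels. Of 16 T cell markers, 11 rose and 0 fell, and their summed level was 29.5 and 33.9 CPM in the CDN2 tumors and 8.08 and 7.38 CPM in the PBS tumors. Cd3d, a chain of the T cell receptor complex, measured 1.65 and 1.56 CPM in the CDN2 tumors and 0.227 and 0.0884 CPM in the PBS tumors (a log2 fold change of 3.31 ± 0.69 (SE, adjusted p = 0.00234)). Cd8a, the coreceptor of cytotoxic T cells, measured 2.05 and 2.12 CPM in the CDN2 tumors and 0.392 and 0.155 CPM in the PBS tumors (a log2 fold change of 2.91 ± 0.84 (SE, adjusted p = 0.0133)), whereas Cd4 was not called at 0.114 and 1.13 CPM against 0.598 and 0.442 CPM. Cd8a was not called without PBS tumor 2 (log2 fold change 2.40, adjusted p = 0.0891). With the PBS tumors of 1 and 2 doses pooled, 3 of the 16 markers were called higher with a median of 0.89 in place of 2.69, and Cd3d (log2 fold change 1.51, adjusted p = 0.100) and Cd8a (log2 fold change 0.56, adjusted p = 0.631) were not among them. Of 10 NK cell markers 7 rose. With CDN2 tumor 1 alone 4 were called higher and with CDN2 tumor 2 alone 9, since Ncr1, Klrb1c, Klre1, Klrd1 and Eomes passed with tumor 2 only. Ncr1, the activating receptor NKp46, measured 0.0569 and 1.07 CPM against 0.165 and 0.0442 CPM. Klrk1, the receptor NKG2D, rose in both (6.82 and 4.27 CPM against 0.804 and 0.221 CPM). Of 10 B cell markers only 5 passed the filter on low counts, and 1 of those, Pax5, rose to levels under 1 CPM, in a call that was lost with DESeq2, without CDN2 tumor 2 and without either PBS tumor. That share is no more than the 20.0% of all genes called higher.

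Genes of cytotoxic granules rose in 13 of 14 cases, with a median of 4.47. Gzmb, granzyme B, measured 30.8 and 73.5 CPM in the CDN2 tumors and 1.07 and 0.619 CPM in the PBS tumors (a log2 fold change of 5.94 ± 0.58 (SE, adjusted p = 3.35e-05)). Gzma, granzyme A, measured 27.7 and 68.0 CPM in the CDN2 tumors and 0.722 and 0.552 CPM in the PBS tumors (a log2 fold change of 6.23 ± 0.71 (SE, adjusted p = 7.29e-05)), and Prf1, perforin, measured 16.4 and 32.7 CPM in the CDN2 tumors and 0.619 and 0.575 CPM in the PBS tumors (a log2 fold change of 5.36 ± 0.55 (SE, adjusted p = 3.98e-05)). In these 3 genes CDN2 tumor 2 was the higher, opposite to the cytokines. Srgn, the proteoglycan core of granules in myeloid cells as well as lymphocytes, measured 1327 and 242 CPM in the CDN2 tumors and 8.79 and 6.08 CPM in the PBS tumors (a log2 fold change of 6.72 ± 0.80 (SE, adjusted p = 8.97e-05)) and was higher in CDN2 tumor 1, as the myeloid markers were. The member not called was Lamp1, a lysosomal protein of most cells.

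Of 28 genes of lymphocyte activation and checkpoints, 19 rose and 1 fell. Tnfrsf9, the costimulatory receptor 4-1BB, measured 151 and 141 CPM in the CDN2 tumors and 4.72 and 2.70 CPM in the PBS tumors (a log2 fold change of 5.30 ± 0.55 (SE, adjusted p = 4.52e-05)). Lag3, an inhibitory receptor, measured 11.5 and 5.61 CPM in the CDN2 tumors and 0.371 and 0.420 CPM in the PBS tumors (a log2 fold change of 4.42 ± 0.56 (SE, adjusted p = 0.000128)). Tbx21, which encodes the T helper 1 factor T-bet, measured 0.455 and 0.564 CPM in the CDN2 tumors and 0.0825 and 0.0884 CPM in the PBS tumors (a log2 fold change of 2.56 ± 0.53 (SE, adjusted p = 0.00219)). It stood below 1 CPM in all 4 tumors and was not called with the PBS tumors pooled (log2 fold change 0.58, adjusted p = 0.510). Tcf7, which encodes the factor TCF1 of naive and memory-like T cells, measured 6.09 and 6.07 CPM in the CDN2 tumors and 7.73 and 9.81 CPM in the PBS tumors and was not called (log2 fold change -0.53, adjusted p = 0.0538). Cxcr3, the receptor for CXCL9 and CXCL10, was the member that fell (1.02 and 1.88 CPM against 7.61 and 9.72 CPM, a log2 fold change of -2.53 ± 0.39 (SE, adjusted p = 0.000353)), in both CDN2 tumors and while its ligands rose. In the PBS tumors Cxcr3 and Tcf7 each stood near or above the sum of the 16 T cell markers (8.08 and 7.38 CPM). In the CDN2 tumors Tnfrsf9 stood above that sum (29.5 and 33.9 CPM). Which cells held these transcripts was not tested.

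**Figure D3:**
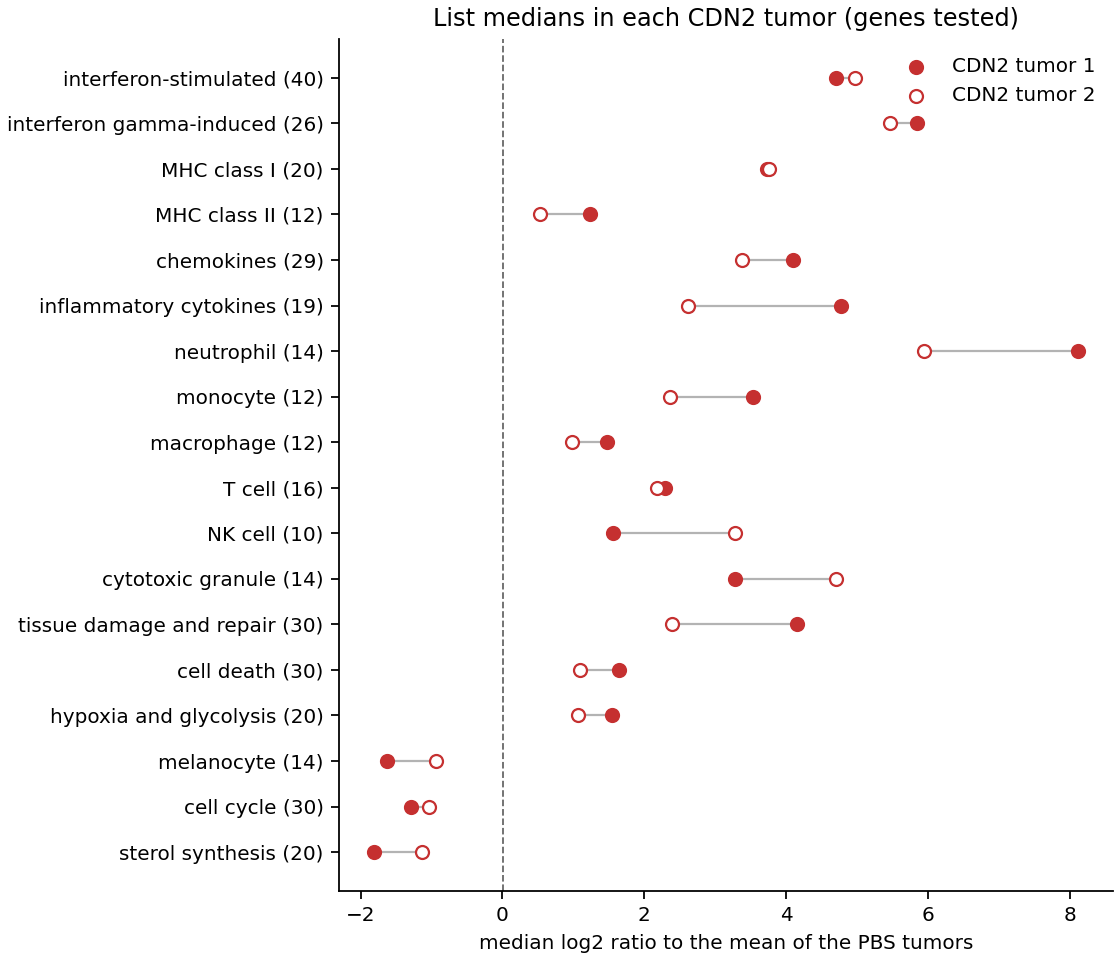
Median log2 ratio to the mean of the PBS tumors over the tested genes of each list, with CDN2 tumor 1 as filled circles and CDN2 tumor 2 as open circles, and a dashed line at the median of all genes. The ISG and MHC class I lists have nearly equal medians in the 2 tumors, the neutrophil, cytokine and tissue damage lists are higher in CDN2 tumor 1, and the NK cell and cytotoxic granule lists are higher in CDN2 tumor 2.

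Genes of tissue damage and repair rose in 26 of 30 cases and 1 fell, with a median of 3.47. Mmp3, the matrix metalloproteinase stromelysin-1, measured 357 and 77.3 CPM in the CDN2 tumors and 4.29 and 4.82 CPM in the PBS tumors (a log2 fold change of 5.57 ± 0.67 (SE, adjusted p = 9.84e-05)). Arg1, the arginase of wound-type myeloid cells, measured 417 and 135 CPM in the CDN2 tumors and 7.69 and 2.12 CPM in the PBS tumors (a log2 fold change of 5.81 ± 0.77 (SE, adjusted p = 0.000162)). Both were higher in CDN2 tumor 1. Mmp14, a membrane-bound metalloproteinase, fell (51.9 and 112 CPM against 161 and 206 CPM, a log2 fold change of -1.16 ± 0.27 (SE, adjusted p = 0.00418)), in a call lost without CDN2 tumor 1 (log2 fold change -0.72, adjusted p = 0.00647) and without PBS tumor 2 (log2 fold change -0.97, adjusted p = 0.0313). Some members of the list, such as Mmp8 and Lcn2, are also neutrophil products.

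Of 30 cell death genes 17 rose and 0 fell. Zbp1, the sensor of Z-form nucleic acid that starts necroptosis and is itself an ISG, measured 253 and 351 CPM in the CDN2 tumors and 3.53 and 2.72 CPM in the PBS tumors (a log2 fold change of 6.59 ± 0.51 (SE, adjusted p = 7.05e-06)). Casp4 and Gsdmd, the inflammatory caspase and the pore protein of pyroptosis, rose to 51.5 and 34.2 CPM against 2.68 and 1.52 CPM and to 55.3 and 36.9 CPM against 3.11 and 2.87 CPM, with log2 fold changes of 4.34 and 3.94. Bax, the pore protein of mitochondrial apoptosis, measured 363 and 307 CPM in the CDN2 tumors and 125 and 156 CPM in the PBS tumors (a log2 fold change of 1.25 ± 0.14 (SE, adjusted p = 6.18e-05)). Zbp1 was the higher in CDN2 tumor 2 and the others in CDN2 tumor 1. Of 20 genes of hypoxia and glycolysis 13 rose and 0 fell. Ndrg1, a stress gene induced by hypoxia, measured 612 and 175 CPM in the CDN2 tumors and 48.2 and 49.7 CPM in the PBS tumors (a log2 fold change of 3.01 ± 0.47 (SE, adjusted p = 0.000404)), and Hk2, hexokinase 2, measured 700.4 and 466 CPM in the CDN2 tumors and 168 and 243 CPM in the PBS tumors (a log2 fold change of 1.51 ± 0.24 (SE, adjusted p = 0.000473)). Of 20 stress response genes 7 rose and 0 fell, with a median of 0.54 on the log2 scale. Among the rises was Ddit3, the transcription factor CHOP of the unfolded protein response, at 189.6 and 170.4 CPM against 23.6 and 20.1 CPM. Hspa1a and Hspa1b, heat shock proteins whose near-identical copies may exchange reads, rose as well. Beside the counts of the cell death, hypoxia and stress lists, 20.0% of all genes tested were called higher and 10.6% lower.

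The falls were smaller. Of 30 cell cycle genes 19 fell and 0 rose, against 10.6% of all genes tested, with a median log2 fold change of -1.26. Ccnb1, cyclin B1, measured 63.2 and 74.5 CPM in the CDN2 tumors and 208 and 209 CPM in the PBS tumors (a log2 fold change of -1.60 ± 0.19 (SE, adjusted p = 8.29e-05)). Foxm1, the transcription factor of mitotic genes, measured 48.3 and 44.0 CPM in the CDN2 tumors and 115 and 150.0 CPM in the PBS tumors (a log2 fold change of -1.52 ± 0.17 (SE, adjusted p = 6.58e-05)), and Bub1, a kinase of the spindle checkpoint, measured 21.3 and 34.6 CPM in the CDN2 tumors and 114 and 84.0 CPM in the PBS tumors (a log2 fold change of -1.82 ± 0.25 (SE, adjusted p = 0.000200)). In these genes both CDN2 tumors were below both PBS tumors, as in 31.2% of all genes tested. Mki67, the proliferation antigen Ki-67, also fell (13.4 and 23.1 CPM against 191 and 33.5 CPM), but the PBS tumors themselves differed widely in it, and it was not called without PBS tumor 1 (log2 fold change -0.86, adjusted p = 0.117). Of 20 genes of sterol synthesis 15 fell and 0 rose, with a median of -1.58. Msmo1, a methylsterol oxidase, measured 71.3 and 109 CPM in the CDN2 tumors and 331 and 351 CPM in the PBS tumors (a log2 fold change of -1.92 ± 0.22 (SE, adjusted p = 7.14e-05)). Lss, lanosterol synthase, measured 28.3 and 32.6 CPM in the CDN2 tumors and 96.4 and 129.8 CPM in the PBS tumors (a log2 fold change of -1.89 ± 0.21 (SE, adjusted p = 6.18e-05)). Tfrc, the transferrin receptor through which dividing cells take up iron, measured 71.1 and 101 CPM in the CDN2 tumors and 463 and 419 CPM in the PBS tumors (a log2 fold change of -2.36 ± 0.22 (SE, adjusted p = 2.64e-05)). Mgat5, a glycosyltransferase that branches N-glycans, measured 110.4 and 110.3 CPM in the CDN2 tumors and 336 and 344 CPM in the PBS tumors (a log2 fold change of -1.62 ± 0.15 (SE, adjusted p = 1.96e-05)).

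Melanocyte genes fell in 8 of 14 cases and rose in 0, with a median of -1.29. Tyr, tyrosinase, the rate-limiting enzyme of melanin synthesis, measured 126 and 385 CPM in the CDN2 tumors and 1090.1 and 709 CPM in the PBS tumors (a log2 fold change of -1.81 ± 0.39 (SE, adjusted p = 0.00261)). Slc45a2, a transporter of melanosomes, measured 308 and 779 CPM in the CDN2 tumors and 1487 and 1703 CPM in the PBS tumors (a log2 fold change of -1.55 ± 0.30 (SE, adjusted p = 0.00149)). Mitf, the master transcription factor of melanocytes, measured 85.8 and 255 CPM in the CDN2 tumors and 515 and 370.5 CPM in the PBS tumors (a log2 fold change of -1.37 ± 0.38 (SE, adjusted p = 0.0111)). Each was lowest in CDN2 tumor 1. Mlana, a melanosome antigen, measured 535 and 596 CPM in the CDN2 tumors and 703 and 766 CPM in the PBS tumors and was not called (adjusted p = 0.0208), and neither were Dct, Sox10 and Gpnmb. The PBS tumors also differed from each other in Tyr and Mitf, and Mitf was not called without CDN2 tumor 1 (log2 fold change -0.80, adjusted p = 0.0282) or without PBS tumor 1 (log2 fold change -1.12, adjusted p = 0.0741).

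The change against PBS followed gene length, in CDN2 tumor 1 more than in CDN2 tumor 2. Among the protein-coding genes of the shortest of 4 equal groups by summed exon length, the median log2 ratio to PBS was 0.56 in CDN2 tumor 1 and 0.29 in CDN2 tumor 2, and in the longest group it was -0.71 and -0.35. Genes were called lower in 2.68% of the shortest group and in 22.1% of the longest, and called higher in 28.3% and 7.12%. The part of length in the calls was not tested, but the trend was also removed from each tumor before a second fit. That fit called 3079 genes higher and 1458 lower, of which 2804 and 1166 were called in the same direction in the first. It called 17 of the 30 cell cycle genes, 14 of the 20 sterol genes and 8 of the 14 melanocyte genes lower, and all 40 ISGs higher. Of 22 genes of respiratory complex I, most of them short, 4 rose and 1 fell in the first fit and 1 rose in the second. In the first fit 20.0% of all genes tested were called higher and 10.6% lower.

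**Figure D4:**
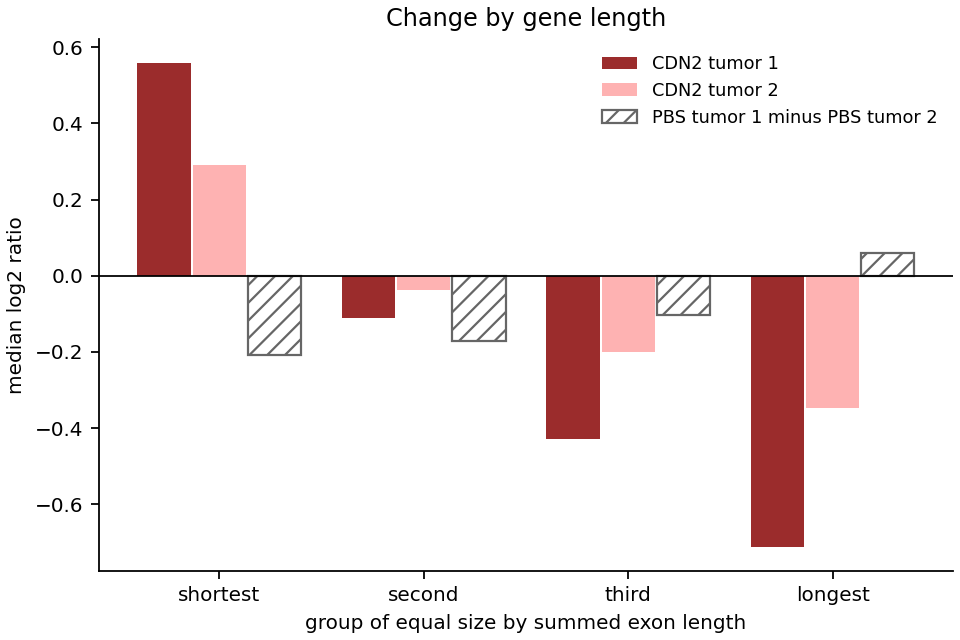
Median log2 ratio to the mean of the PBS tumors in 4 equal groups by summed exon length (protein-coding genes, shortest to longest), for CDN2 tumor 1 (dark bars), CDN2 tumor 2 (light bars) and, as the difference between the control tumors, PBS tumor 1 minus PBS tumor 2 (hatched bars). The median falls from 0.56 to -0.71 in CDN2 tumor 1 and from 0.29 to -0.35 in CDN2 tumor 2, while the PBS tumors differ from each other by -0.21 to 0.06.

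Markers of tissue around the tumor differed between the groups too. Skeletal muscle genes rose in 10 of 14 cases, with summed levels of 5839 and 3075 CPM in the CDN2 tumors and 252 and 441 CPM in the PBS tumors. Mylpf, the light chain of fast muscle myosin, measured 456 and 283 CPM in the CDN2 tumors and 11.9 and 20.4 CPM in the PBS tumors (a log2 fold change of 4.52 ± 0.87 (SE, adjusted p = 0.00143)). Fibroblast and pericyte genes rose in 7 of 14 cases, led by Mfap5 and by Dcn, the matrix proteoglycan decorin, at 1255 and 185 CPM in the CDN2 tumors and 16.7 and 12.9 CPM in the PBS tumors (a log2 fold change of 5.60 ± 0.85 (SE, adjusted p = 0.000353)). Red cell genes rose in 5 of 6 cases, with summed levels of 1139 and 1500.3 CPM against 136 and 136 CPM. The hemoglobin genes are near-identical pairs, so their split is uncertain. Of 16 keratinocyte genes 2 rose, or 8 by DESeq2, 5 with a replicate block and 6 with CDN2 tumor 1 alone, with summed levels of 75.8 and 10.4 CPM against 2.68 and 1.79 CPM, and the PBS tumors of 1 dose held 291 and 167 CPM. The fitted keratinocyte median was 5.68, or 3.12 with the 11 genes at the floor in both PBS tumors set to their bounds, and it turned to -1.14 against the pooled PBS tumors. Endothelial genes were divided, with 1 of 14 higher and 2 lower. Beside the counts of these lists, 20.0% of all genes tested were called higher and 10.6% lower. The part that muscle, skin and blood in the sample played in the other results was not tested.

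The genes with the largest differences between the CDN2 tumors included markers of the same tissues. Further up in CDN2 tumor 1 were keratins of the skin, such as Krt14 at 12.3 and 0.591 CPM against 0.144 and 0 CPM, and Tslp, a cytokine of barrier epithelium, at 9.27 and 0.403 CPM against 0.124 and 0.110 CPM, which was called with tumor 1 alone and not with tumor 2 alone. Further up in CDN2 tumor 2 was Myh2, a myosin heavy chain of muscle, at 4.83 and 91.4 CPM against 7.73 and 8.11 CPM, called with tumor 2 alone. Chsy3, an enzyme of chondroitin synthesis, measured 9.95 and 108 CPM in the CDN2 tumors and 161 and 166 CPM in the PBS tumors and was far lower in CDN2 tumor 1. Mgll, the lipase of monoacylglycerol, was above both PBS tumors in CDN2 tumor 1 and below them in CDN2 tumor 2, at 345 and 55.8 CPM against 176 and 216 CPM, and was called lower with CDN2 tumor 2 alone. Across all genes tested, 7 were called in opposite directions by the 2 tumors, 3 higher with tumor 1 and 4 higher with tumor 2.

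**Figure D5:**
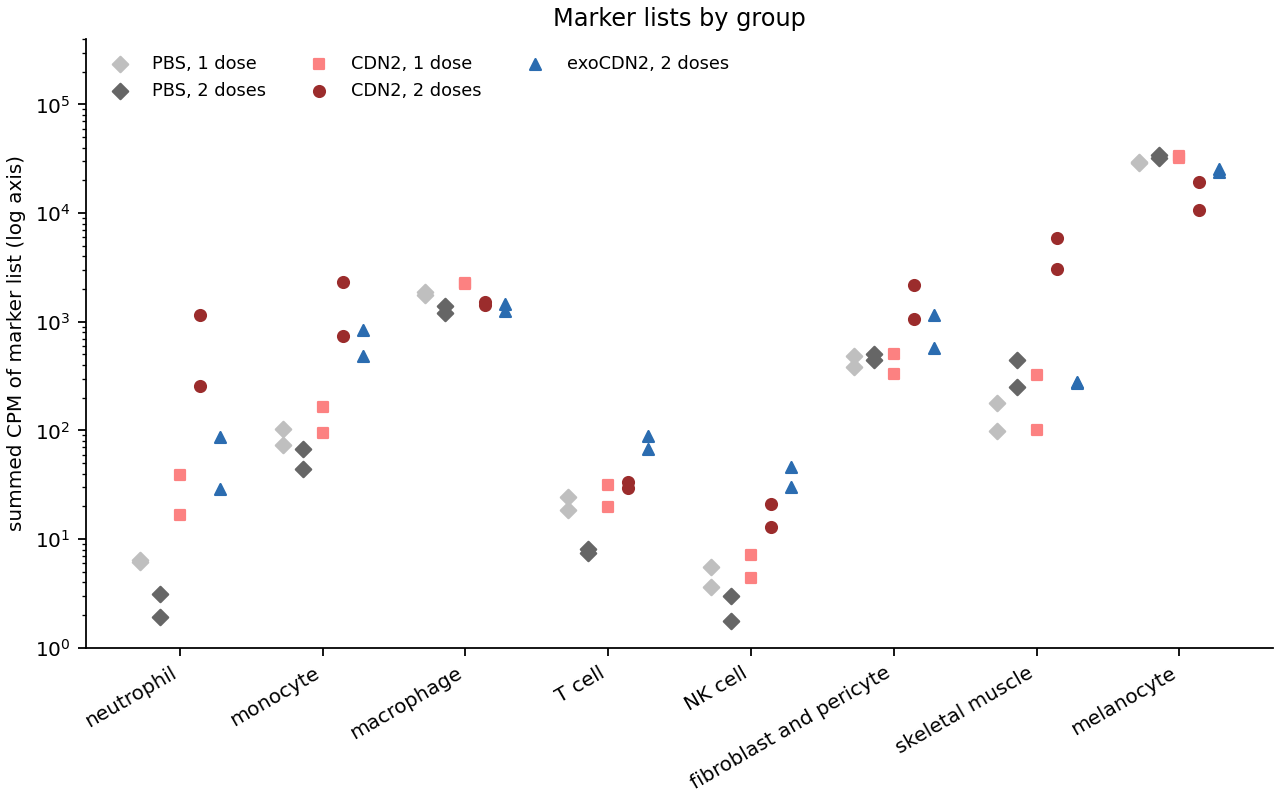
Summed CPM (log axis) of marker lists of 8 cell types and tissues in the 4 tumors compared and in the groups given 1 dose of PBS, 1 dose of CDN2 (20 µg) and 2 doses of exoCDN2 (0.1 µg), with 1 point per tumor. The neutrophil and muscle sums are highest in the tumors given 2 doses of CDN2, the melanocyte sums are lowest there, and the T cell sums are highest after 2 doses of exoCDN2. The monocyte sum is highest in CDN2 tumor 1 (2345 CPM), but that of CDN2 tumor 2 (739 CPM) lies within the range after exoCDN2 (832 and 486 CPM).

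The response to 2 doses was then set against the response to 1 dose, each relative to PBS of the same number of doses. The response to 2 doses was the greater in 1975 genes (11.7%) and the smaller in 873 (5.16%), by a test of the difference itself. The total of 2848 became 1397 or 1800 without PBS tumor 2 or 1 of 1 dose, 1444 without CDN2 tumor 1 of 1 dose and 5533 without tumor 2 of 2 doses of CDN2, and was 1179 when only the groups compared were fitted. Such a difference also holds any difference between the PBS tumors of 1 and 2 doses. Levels after 1 dose are given for some of the genes and lists. Of the ISGs, 28 of 40 had a greater response to 2 doses, but their summed level was 16226 and 21938 CPM after 1 dose of CDN2, no lower than after 2. The PBS tumors of 1 dose stood at 2416 and 2421 CPM, against 768 and 652 CPM after 2 doses of PBS. Isg15 stood at 285 and 409 CPM after 1 dose of CDN2 and its response differed by 4.15 ± 0.34 (SE, adjusted p = 0.000354) on the log2 scale. With the PBS tumors of 1 and 2 doses pooled as controls, 39 of the 40 ISGs were called higher after 2 doses of CDN2, and the ISG median was 3.56 in place of 4.97.

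Of the myeloid, granule and repair lists, 9 of 12 monocyte markers, 12 of 14 granule genes and 19 of 30 genes of tissue damage had a greater response to 2 doses, and 0, 0 and 1 had a smaller one. The CDN2 tumors of 1 and 2 doses were not tested against each other directly. Neutrophil markers summed to 16.7 and 38.6 CPM after 1 dose of CDN2, and 6 of 14 had a greater response to 2 doses. Ly6c2 stood at 4.45 and 9.67 CPM after 1 dose of CDN2 and at 4.50 and 9.81 CPM after 1 dose of PBS, and its response differed by 7.06 ± 0.96 (SE, adjusted p = 0.00185). For Gzmb the values were 8.25 and 11.9 CPM with CDN2 and 5.37 and 5.98 CPM with PBS, and the response differed by 5.12 ± 0.72 (SE, adjusted p = 0.00203). Arg1 and Mmp3 had responses that differed by 6.56 ± 0.98 (SE, adjusted p = 0.00252) and 6.18 ± 0.87 (SE, adjusted p = 0.00203). Ifnb1 went the other way in level, with 14.0 and 54.9 CPM after 1 dose of CDN2, and its difference was not called (adjusted p = 0.626). Genes that fell differed between the numbers of doses as well. Of the cell cycle genes 15 of 30 and of the sterol genes 15 of 20 had a lower response to 2 doses than to 1, with Ccnb1 differing by -1.61 ± 0.26 (SE, adjusted p = 0.00309) and standing at 160.5 and 176 CPM after 1 dose of CDN2.

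Finally, 2 doses of free CDN2 were compared directly with 2 doses of exoCDN2. The amount of CDN2 (20 µg against 0.1 µg) and the carrier differ together and cannot be told apart. Free CDN2 was higher in 2037 genes (12.0%) and lower in 1242 (7.34%). Fitted on the 4 tumors of both groups alone, 30 genes were called higher and 0 lower, and the total of 3279 calls was 1041 without CDN2 tumor 1, 1404 without exoCDN2 tumor 2 and 6006 without CDN2 tumor 2, so the lists below rest on the spread pooled over all groups. Of the 40 ISGs, 10 were higher and 2 lower in the free CDN2 tumors, with a median difference of 0.24 on the log2 scale. Isg15 stood at 241 and 193 CPM after exoCDN2, a log2 difference of 2.00 ± 0.24 (SE, adjusted p = 0.00101). Inflammation and damage stood higher after free CDN2. There 12 of 19 cytokines, 15 of 29 chemokines, 12 of 14 neutrophil markers and 22 of 30 genes of tissue damage were higher, and 0, 0, 0 and 2 were lower. For the lists with 0 calls in a direction here, DESeq2 also called 0 and 0 members had an unadjusted p under 0.05 in it. The cytokine sums were 1673 and 434 CPM after free CDN2 and 337 and 196 CPM after exoCDN2. The chemokine sums were 7608 and 2448 CPM against 1588 and 1043 CPM. For neutrophil markers they were 1149.7 and 255 CPM against 86.2 and 28.7 CPM. For tissue damage they were 8759 and 3343 CPM against 2552 and 1697 CPM. In each list CDN2 tumor 2 lay nearer to the exoCDN2 tumors than CDN2 tumor 1 did. Cxcl2 stood at 24.6 and 6.17 CPM after exoCDN2 and differed by 5.84 ± 1.01 (SE, adjusted p = 0.00249), and S100a8 stood at 11.8 and 3.31 CPM and differed by 4.33 ± 0.89 (SE, adjusted p = 0.00492).

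The calls in T cell and class II genes went toward lower values after free CDN2 than after exoCDN2. Of 16 T cell markers 7 were lower and 0 higher, and of 12 class II genes 6 were lower and 0 higher. The T cell sum was 89.4 and 67.9 CPM after exoCDN2 against 29.5 and 33.9 CPM after free CDN2. The class II sums overlapped, at 2279 and 907 CPM after exoCDN2 against 1119 and 680.5 CPM. Tbx21 stood at 2.54 and 1.76 CPM and differed by -2.05 ± 0.43 (SE, adjusted p = 0.00541). Ciita stood at 31.1 and 8.49 CPM and differed by -3.90 ± 0.88 (SE, adjusted p = 0.00712), and H2-Aa stood at 314 and 74.2 CPM and differed by -2.58 ± 0.72 (SE, adjusted p = 0.0176). Ciita was not called without CDN2 tumor 1 (log2 fold change -3.46, adjusted p = 0.0532), and H2-Aa was not called without CDN2 tumor 2 (log2 fold change -2.14, adjusted p = 0.0655) or without exoCDN2 tumor 1 (log2 fold change -1.20, adjusted p = 0.199). For the genes of cytotoxic granules, 1 of 14 was higher and 2 were lower, and Gzmb, at 124 and 60.0 CPM after exoCDN2, was not called, with a difference of -0.81 ± 0.45 (SE, adjusted p = 0.171), though it was called lower without CDN2 tumor 2 (log2 fold change -1.59, adjusted p = 0.0179). NK cell markers were called in 0 of 10 cases in either direction by edgeR's test, with 3 lower at an unadjusted p under 0.05 and 1 called lower by DESeq2. Muscle and red cell genes stood higher after free CDN2, in 10 of 14 and 5 of 6 cases.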

How the data were processed

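Whole-tumor RNA was sequenced, and the authors deposited 1 table of expected counts per gene. Per the study's methods, reads were aligned with OSA in OmicSoft ArraySuite to GRCm38 (mm10) and quantified by RSEM with Ensembl R88. From the deposited expected counts, rounded to whole numbers, genes were kept by filterByExpr (minimum count 10, minimum total 15), scaled by TMM and tested with edgeR 4.0.16 (R 4.3.3, quasi-likelihood) in 16 tumors of 8 groups, with 8 residual degrees of freedom. Calls needed a Benjamini-Hochberg adjusted p under 0.05 and a ratio over 2. Two-sided tests were used throughout. Each SE was derived from the test, as the absolute log2 fold change over the square root of its F statistic. Log2 CPM of single tumors used a prior count of 2. Symbols came from GENCODE M21 (50376 of 50600 gene IDs matched). Both CDN2 tumors without a stated amount were left out. The study calls the tumors biological replicates, and p-values rest on the spread between tumors of a group, pooled over the 8 groups. Named genes were the 10 called each way with the smallest p and no overlap between groups. At most 4 called genes each way per list (3 in the further contrasts) and defining cell type markers were added. So were the 6 each way with the largest differences between the CDN2 tumors (at least 5 CPM in either CDN2 tumor, or called with 1 tumor alone). Genes the study measured were named too, and predicted genes and pseudogenes were passed over. Other genes named were chosen after their values were seen. Members and lists were chosen with earlier results of these data known. DESeq2 1.42.0, other scalings, filters and sample sets, left-out tumors, thinned counts, a replicate block and, chosen after seeing the data, a crossed block and removal of the length trend were the alternatives. The fits were tested on simulated data that had the same spread in every gene and group, so a pair as discordant as the CDN2 tumors was not simulated. Values of some genes are not reported here.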

Additional observations from a re-analysis of the deposited data

Results flagged for a closer look

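The difference between the response to 2 doses and the response to 1 dose of free CDN2, each against PBS of its own number of doses, was tested by edgeR's quasi-likelihood test of the difference. It was called in 1975 genes with a greater response to 2 doses and in 873 with a smaller one. A difference of this kind also holds any difference between the PBS tumors of 1 and 2 doses. Of the genes named above, the differences on the log2 scale were 4.15 for Isg15, 7.06 for Ly6c2, 5.12 for Gzmb, 6.56 for Arg1 and 6.18 for Mmp3, and -1.61 for Ccnb1, which has a minus sign because the response to 2 doses was the lower.

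The pair of tumors that received free CDN2 in 2 doses at an amount that the labels leave out formed no group in any test and entered only the alternative that fitted all 18 tumors. When all 18 tumors were scaled together, their summed levels of the ISG list were 2197 and 2557 CPM, and those of the neutrophil list were 4.97 and 8.76 CPM. On the same scale, the highest of the 4 PBS tumors of 1 or 2 doses stood at 2397 CPM for the ISG list. For the neutrophil list the highest stood at 6.35 CPM. Both of these values came from a PBS tumor of 1 dose. The second of the unlabelled tumors lay above every PBS tumor in both sums and the first did not. The PBS tumors of 2 doses held 761 and 646 CPM of the ISG list. They held 3.06 and 1.90 CPM of the neutrophil list. Both unlabelled tumors lay above both PBS tumors of 2 doses in both sums. The second library also stood apart in composition, with 14.3% of its counts in the 10 most abundant genes and 7.67% in mitochondrial genes, against 7.82% and 3.34% in the first, and the part of this in its sums was not tested. The tumors given 2 doses of CDN2 at 20 µg stood at 14269.6 and 14895 CPM for the ISG list.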

How the results depend on the processing

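The count of genes called higher against PBS ranged from 2321 to 4582 over the alternatives, and that of genes called lower changed more. With only the groups compared in the fit, 2321 genes were called higher and 739 lower, and with no limit on the ratio 4582 and 3933. Leaving out 1 tumor at a time gave 2576 to 3663 higher and 1140 to 3330 lower, the extremes of both being without CDN2 tumor 1 and without CDN2 tumor 2. DESeq2 called 3451 higher and 1714 lower, RLE scaling 3481 and 1692, no filter 3610 and 2111, all 18 tumors 3404 and 1795, pooled PBS controls 3232 and 1701, and thinned counts 3096 and 1658. The difference in response between 2 doses and 1 was called in 1179 genes with only the groups compared, and in 1397 to 5533 when 1 tumor was left out. The comparison with exoCDN2 gave 30 genes with only the groups compared, 6337 with no limit on the ratio, 2135 with the length trend removed and a replicate block, and 1041 to 6006 when 1 tumor was left out. In these the cause was not tested, beyond the fewer tumors and the wider threshold themselves.

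The tumors share only a replicate number: deviations of same-numbered tumors correlated across genes at -0.14 for CDN2 and PBS, at 0.32 for CDN2 and exoCDN2 of 2 doses, and from -0.18 to 0.32 over the 28 pairs of groups. With the replicate block 3343 genes were called higher and 1749 lower against PBS, 2648 differed between the numbers of doses and 3109 from exoCDN2. A crossed block, added after seeing the data, gave 3333 and 1852.

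Of the named genes, H2-DMb1 turned to -0.63 on the log2 scale with pooled PBS controls and Mgll ranged from -1.82 to 0.80 when 1 tumor was left out, the lowest without CDN2 tumor 1 and the highest without CDN2 tumor 2. List medians changed sign with pooled PBS for MHC class II (-0.70), keratinocytes (-1.14), endothelial cells (0.060) and adipocytes (0.0088), and for endothelial cells with thinned counts (0.054) and with the length trend removed (0.096, or 0.099 with the block). With 1 tumor left out, the endothelial median ranged from -0.37 to 0.10, the adipocyte median from -0.85 to 0.050 and the dendritic cell median from -1.11 to 0.057. The B cell median was -0.22 with the length trend removed and -0.21 with the block as well. The cause was not tested. Low-count genes are limited most by CDN2 tumor 1, the shallowest of the 4.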

Other observations

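Genes outside the lists also rose strongly in the CDN2 tumors. They were picked after their values were seen, so they support no comparison. Ptgs2, the cyclooxygenase that makes prostaglandins in inflammation, measured 342 and 38.6 CPM in the CDN2 tumors and 3.65 and 0.552 CPM in the PBS tumors, and Ptges, the synthase that follows it in that path, measured 320.1 and 43.8 CPM in the CDN2 tumors and 0.846 and 0.685 CPM in the PBS tumors. Nfkbia, the inhibitor of NF-κB that NF-κB itself induces, measured 1541 and 217 CPM in the CDN2 tumors and 13.8 and 12.8 CPM in the PBS tumors. Slpi, a protease inhibitor of mucosa and neutrophils, measured 1055 and 178 CPM in the CDN2 tumors and 0.557 and 0.862 CPM in the PBS tumors. All 4 rose and were higher in CDN2 tumor 1. Slfn4, a schlafen gene of myeloid cells, measured 204 and 62.0 CPM in the CDN2 tumors and 1.65 and 0.398 CPM in the PBS tumors. Apol9b, an apolipoprotein induced by interferon, measured 187 and 451 CPM in the CDN2 tumors and 1.65 and 1.06 CPM in the PBS tumors and was higher in CDN2 tumor 2, but it shares much of its sequence with Apol9a, and reads may be split between them. Among the falls, Fasn, the fatty acid synthase, measured 81.2 and 169 CPM in the CDN2 tumors and 455 and 737 CPM in the PBS tumors, lowest in CDN2 tumor 1, as the sterol genes were in their medians.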
